A study of Mus musculus with 4 samples.

Results

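The genes described here form the hepcidin axis and the core of iron handling in mouse liver, and they number 10 of the 13903 genes in the expression table. They were taken from the table by gene symbol: the hepcidin genes Hamp and Hamp2, the BMP ligand Bmp6 and the BMP response gene Id1, the transferrin receptors Tfr2 and Tfrc, plasma transferrin Trf, the iron exporter Slc40a1 (ferroportin) and the ferritin chains Fth1 and Ftl1. All 10 were found. Messenger RNA of whole liver was sequenced in 4 libraries, each made from RNA pooled in equal parts from 3 mice. All mice were OGT-Floxed on the C57BL/6J background and had been fed a CDE diet, which lacks choline and contains ethionine and injures the liver, so no library came from an undamaged liver on normal chow. The label OGT-KO stands for the virus AAV8-TBG-CRE, an adeno-associated virus that expresses Cre recombinase from the hepatocyte promoter TBG, and the label control for AAV8-TBG-eGFP, its counterpart with a fluorescent protein. The promoter limits Cre to hepatocytes, so the other cells of a liver labelled OGT-KO should keep Ogt, the gene of the enzyme that attaches O-GlcNAc to proteins. One library of each label was taken with no recovery after the diet and 1 after 7 days of recovery. The labels gave neither the age and sex of the mice nor the length of the diet.

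Hepcidin, the product of Hamp, is a small hormone that hepatocytes secrete. It binds ferroportin on macrophages, enterocytes and hepatocytes and causes its loss from the membrane, so that iron stays inside these cells. Its transcription is driven by BMP ligands, above all BMP6 from the sinusoidal endothelium, through SMAD proteins, and during inflammation by IL-6 through STAT3. Cells also tune iron uptake, storage and export through iron-responsive elements, hairpins in messenger RNA that bind the iron regulatory proteins IRP1 and IRP2 when iron is scarce. A hairpin in a 5′ untranslated region (UTR) then blocks translation, and hairpins in the 3′ UTR of Tfrc protect that message from decay.

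The hairpins are shown because they mark which members carry this control in their RNA. Through a hairpin in a 5′ UTR, a change of iron can act on translation without moving the message level measured here. Those in the 3′ UTR of Tfrc act on decay, and so on the message level itself. Protein-coding transcripts (GENCODE M21, mouse build GRCm38) were searched for a bulged C, a stem of 5 pairs, the loop CAGTG followed by any base, and a lower stem with at least 4 pairs of 5, with G-U pairs allowed. Of 13866 genes of the table with such a transcript, 28 (0.202%) held a match, and 4 of the 10 members did. The bulged C and the 6-base loop are in capitals, and each stretch is written 5′ to 3′ on the transcribed strand.
Tfrc hairpin 1, 3′ UTR in exon 19, plus strand, chr16:32631220-32631246: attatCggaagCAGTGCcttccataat
Tfrc hairpin 2, same exon, chr16:32631599-32631625: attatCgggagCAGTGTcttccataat
Tfrc hairpin 3, same exon, chr16:32631664-32631690: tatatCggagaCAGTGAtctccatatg
Tfrc hairpin 4, same exon, chr16:32631711-32631737: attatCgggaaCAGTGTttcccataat
Slc40a1, 5′ UTR in exon 1, minus strand, chr1:45925466-45925492: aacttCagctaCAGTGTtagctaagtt
Fth1, 5′ UTR in exon 1, plus strand, chr19:9982733-9982759: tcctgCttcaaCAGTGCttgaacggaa
Ftl1, 5′ UTR in exon 1, minus strand, chr7:45459780-45459806: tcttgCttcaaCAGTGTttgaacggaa
The ferritin chains and the exporter thus carried 1 match each ahead of their coding parts, and the uptake receptor carried 4 behind its own. Hamp, Hamp2, Bmp6, Id1, Tfr2 and Trf held no match of this form.

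The promoters of Hamp and Hamp2 are shown because these neighbours on chromosome 7 differed over recovery between the OGT-KO-labelled libraries, while both were higher at 7 days by a like amount (0.65 and 0.66 on the log2 scale) between the control-labelled ones. The 150 bases before each RefSeq start site (build GRCm38.p6, minus strand for both) were aligned, and 135 of 153 aligned positions (88.2%) were identical. Capitals mark the letters GGCGCC, the core of the BMP-responsive element, and TTC and GAA with 3 free bases between them, the core of a STAT site.
Hamp, chr7:30944030-30944179: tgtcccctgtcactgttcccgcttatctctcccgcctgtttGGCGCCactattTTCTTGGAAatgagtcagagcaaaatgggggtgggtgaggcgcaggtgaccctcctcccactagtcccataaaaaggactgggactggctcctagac
Hamp2, chr7:30924182-30924331: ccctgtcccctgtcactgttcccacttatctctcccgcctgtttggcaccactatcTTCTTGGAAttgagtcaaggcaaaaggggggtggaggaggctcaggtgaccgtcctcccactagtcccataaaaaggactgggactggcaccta
GGCGCC stood at bases -109 to -104 of Hamp and was not in the Hamp2 window. The STAT core stood at -97 to -89 in Hamp and at -94 to -86 in Hamp2, and the 2 motifs did not overlap. Over 32851 promoter windows of 300 bases and both strands, 11.9% held GGCGCC and 8.30% held the STAT core with 3 free bases. With 4 free bases, 6.95% of all windows and no window of a member held it. Windows were given for 7 of the 10 members, and beside Hamp only Tfrc of these held GGCGCC. Trf, Slc40a1 and Id1 had no window, so their promoters were not searched. A match describes letters and does not show that a factor binds there.

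The values are in CPM, the reads of a gene scaled to a total of 1000000 per library, and each library held between 19972699 and 22866431 reads. With 1 pooled library per condition there was no replicate error, so no test between conditions was possible. The intervals given with levels (exact Poisson) and ratios (Clopper-Pearson), all at 95%, cover counting error only. Differences are on the log2(CPM + 1) scale, taken over the 8963 genes that averaged 10 CPM or more, and a gene was called higher or lower at a 2-fold difference. All 10 members passed this filter, but Bmp6 and Id1 lay under 10 CPM in both control-labelled libraries and passed through the OGT-KO-labelled ones, and Hamp2 passed through 1 library. Their calls were therefore partly set by the filter.

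Some features of the libraries bear on every comparison. The whole distribution was shifted. The median compared gene was higher in the OGT-KO-labelled library by 0.51 (log2) with no recovery and by 0.48 at 7 days. Each label difference of a member is therefore also given after median-ratio scaling, which sets the typical gene to no difference. Those of most other genes are given as deposited only. Reads of the targeted gene went against 1 label. Ogt stood at 64.7 CPM in the control-labelled and 55.3 in the OGT-KO-labelled library with no recovery, but at 55.7 and 77.7 at 7 days, a difference of 0.47 that became -0.02 after median-ratio scaling. Gene-level reads also count parts of Ogt outside any deleted exons and Ogt in cells without Cre, so they check the labels only weakly, and the groups are called by their labels throughout. Cell type markers differed strongly. Hepatocyte markers summed to 78664 and 52474 CPM with no recovery (control-labelled, then OGT-KO-labelled) and to 86795 and 62803 at 7 days. Albumin itself was high in all 4 libraries (41362 to 54435 CPM), as the label liver requires. Markers of stellate cells and myofibroblasts were at least 2-fold higher in the OGT-KO-labelled library for 7 of 7 genes at both times, those of cholangiocytes for 5 of 5, and those of Kupffer cells and macrophages for 7 of 7 compared. Of all compared genes, 19.2% were so at both times. Several of these markers (Acta2, Des, Krt7, Krt19 and Epcam among them) lay under 10 CPM in both control-labelled libraries and were compared only through the OGT-KO-labelled ones, so these counts were partly set by the filter. No marker in the table was at 0. In whole liver, fewer cells of a type and less RNA per cell cannot be told apart, and the part of these cells in the results was not tested.

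**Figure D1:**
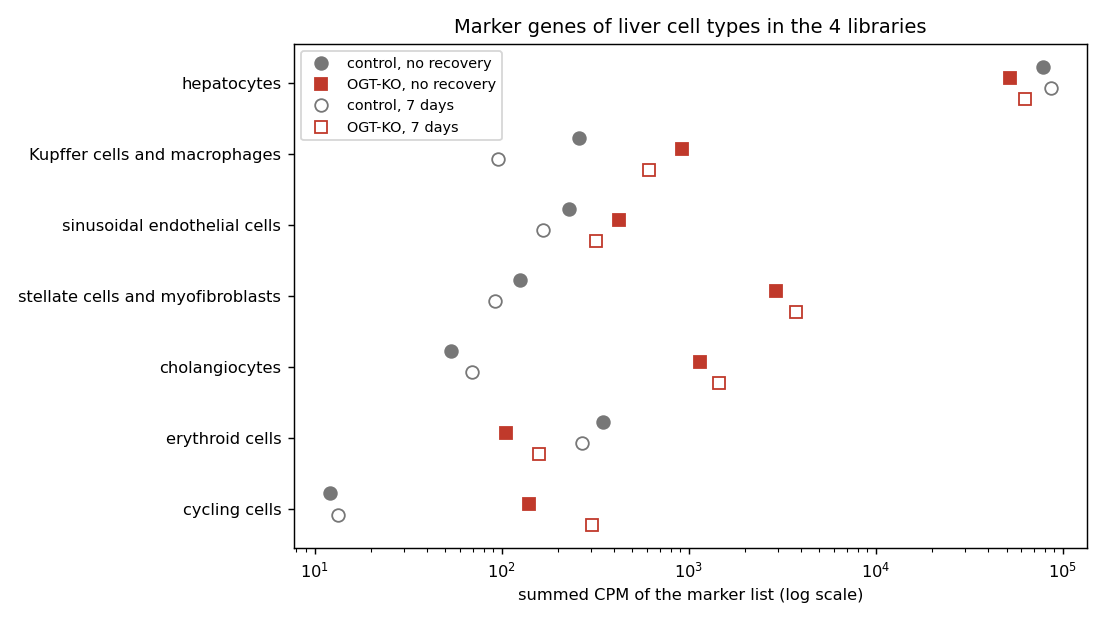
Summed CPM (log axis) of 7 lists of cell type markers in the 4 libraries, with circles for control-labelled and squares for OGT-KO-labelled libraries, filled for no recovery and open for 7 days. Hepatocyte sums were lower in the OGT-KO-labelled libraries (52474 and 62803 against 78664 and 86795), and stellate, cholangiocyte, macrophage and cycling sums were higher.

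Levels per transcript length spanned from plasma protein to rare message. In the control-labelled library with no recovery, Trf stood at 5932 CPM per kilobase, Ftl1 at 3005, Fth1 at 2027 and Hamp at 1049. These 4 kept this order in all 4 libraries. Below them in that library came Tfr2 at 175, Slc40a1 at 25.1, Hamp2 at 13.8, Tfrc at 5.82, Id1 at 4.23 and Bmp6 at 1.75 CPM per kilobase, and Bmp6 was the lowest member everywhere. The middle of the order was not fixed: Id1 reached 51.0 and 57.2 CPM per kilobase in the OGT-KO-labelled libraries, and Hamp2 reached 146 in the one taken at 7 days, above Tfr2 at 109.

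**Figure D2:**
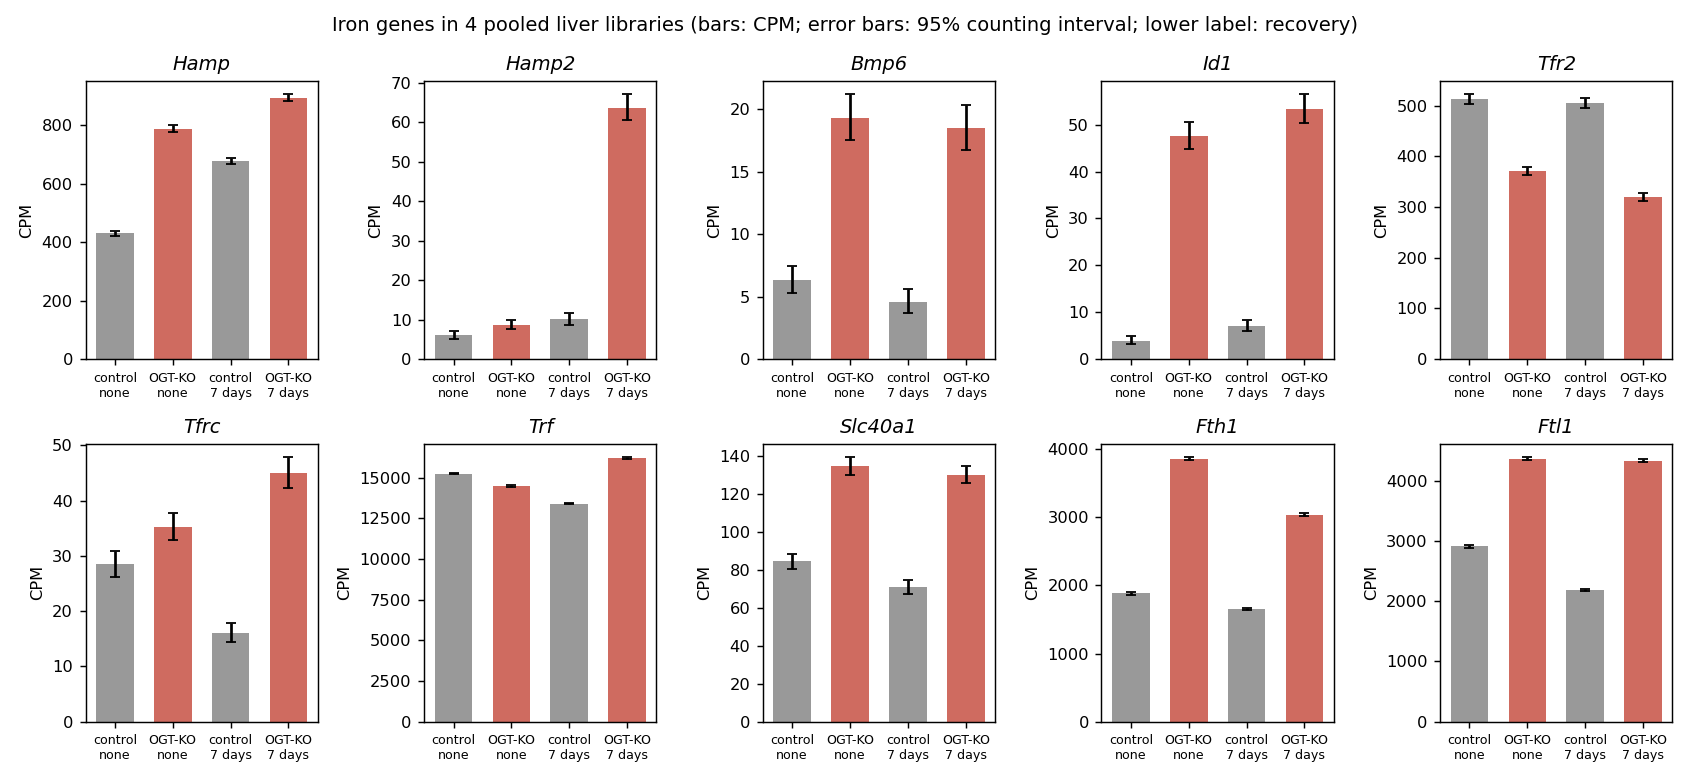
CPM of the 10 members in each of the 4 libraries, 1 panel per gene with its own axis from 0. Bars are single pooled libraries and error bars are 95% counting intervals, which leave out differences between mice. Id1 (47.6 and 53.4 against 3.95 and 7.01) and Bmp6 separate by label at both times, whereas Hamp2 stands out in 1 library at 63.8 CPM.

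Against the control-labelled library, 3 of the 10 members were at least 2-fold higher in the OGT-KO-labelled library with no recovery (Fth1, Bmp6 and Id1), where 24.4% of all compared genes were, and 0 were lower, where 5.69% of all were. At 7 days 4 were higher (Hamp2, Tfrc, Bmp6 and Id1; 22.9% of all) and 0 were lower (4.27% of all). The members as a set were thus not far from the background of these libraries. Bmp6 and Id1 were the members higher at both times, as were 19.2% of all compared genes, and 0 members were lower at both (3.74% of all). After median-ratio scaling 2 members were higher with no recovery (Bmp6 and Id1; 12.9% of all) and 3 at 7 days (Hamp2, Bmp6 and Id1; 13.4% of all), and Tfr2 was lower at 7 days (8.48% of all). The median difference of the 10 members was 0.63 with no recovery and 0.93 at 7 days, beside 0.51 and 0.48 for all compared genes.

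**Figure D3:**
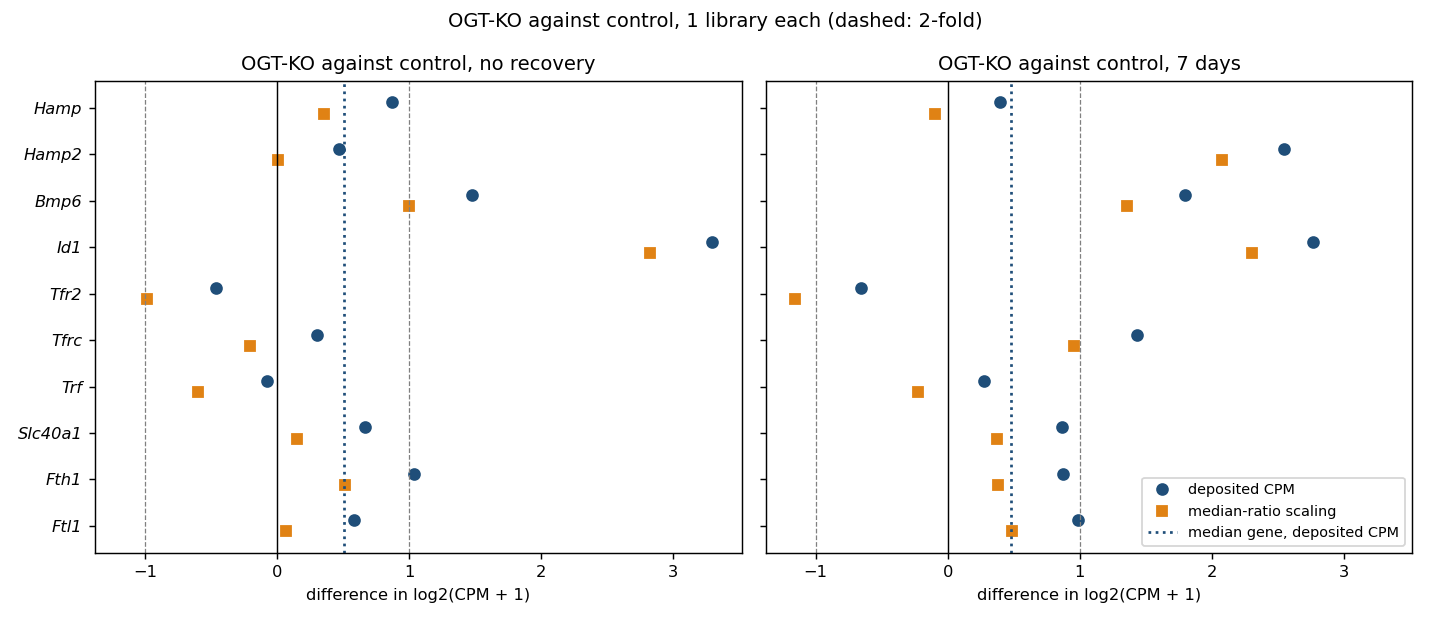
Difference in log2(CPM + 1) between the OGT-KO-labelled and control-labelled library for each member, with no recovery (left) and at 7 days (right). Circles use the deposited CPM, squares median-ratio scaling, the dotted line is the median compared gene (0.51 and 0.48) and dashed lines mark 2-fold. Id1 and Bmp6 lie right of the dotted line at both times and Tfr2 lies left of 0 under both scalings.

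Hamp, the hepcidin that regulates ferroportin, stood at 430.2 CPM in the control-labelled and 788 in the OGT-KO-labelled library with no recovery, and at 677 and 893 at 7 days. As deposited, both OGT-KO-labelled libraries were thus above both control-labelled ones. After median-ratio scaling the control-labelled library at 7 days was the highest, at 818, against 647 (no recovery) and 765 (7 days) in the OGT-KO-labelled ones. The ratio was 1.83 (interval 1.79 to 1.88) with no recovery and 1.32 (1.29 to 1.35) at 7 days. On the log2 scale the difference was 0.87 with no recovery and kept its sign after median-ratio scaling (0.35), whereas that at 7 days was 0.40 as deposited and -0.10 after it. Hamp therefore sat above the typical gene of these libraries with no recovery, at percentile 70.4 of all compared differences, and near it at 7 days, at percentile 44.6.

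Hamp2, the neighbouring copy of the hepcidin gene, gave the least even pattern of the set. It had 6.02 CPM (128 reads) in the control-labelled and 8.70 CPM (199 reads) in the OGT-KO-labelled library with no recovery. At 7 days it had 10.1 CPM in the control-labelled library and 63.8 CPM (1439 reads) in the OGT-KO-labelled one. In 3 libraries the gene was thus low and in 1 it was high. The ratio between labels was 1.45 (1.15 to 1.82) with no recovery, with a log2 difference of 0.47 that became 0.01 after median-ratio scaling. At 7 days the ratio was 6.34 (5.46 to 7.38), and the log2 difference was 2.55 as deposited and 2.08 after scaling. Hamp2 made up 1.38%, 1.09% and 1.46% of the reads of both hepcidin genes in the first 3 of these libraries and 6.66% (6.33 to 7.00) in the OGT-KO-labelled library at 7 days.

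The split of reads between the hepcidin genes is uncertain, because their transcripts were identical at 388 of 420 aligned positions (92.4%) and 60 of the 371 stretches of 50 bases in Hamp2 (16.2%) also occur in Hamp. How reads that fit both genes were counted is not given in the sources used here. Their sum does not depend on how counted reads were split. It was 436 and 797 CPM with no recovery and 687 and 957 at 7 days, close to Hamp alone. Reads that fit both genes would be missing from this sum too if they were left out of the counts. Between the OGT-KO-labelled libraries Hamp was 1.13-fold and Hamp2 7.33-fold higher at 7 days than with no recovery. Whether reads of Hamp were assigned to Hamp2 was not tested.

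Bmp6, the ligand that signals liver iron to hepatocytes, stood at 6.30 CPM in the control-labelled and 19.3 in the OGT-KO-labelled library with no recovery, and at 4.61 and 18.5 at 7 days. Both OGT-KO-labelled values lay above both control-labelled values, and 19.2% of all compared genes were at least 2-fold higher by label at both times. The ratio was 3.07 (2.52 to 3.75) with no recovery and 4.01 (3.19 to 5.08) at 7 days. After median-ratio scaling the log2 differences of 1.48 and 1.80 became 1.002 and 1.36, so that the first lay almost on the 2-fold line. In the liver Bmp6 is made chiefly by sinusoidal endothelial cells, which the virus does not target. Markers of these cells summed to 228 and 424 CPM with no recovery and to 166 and 320.4 at 7 days, and 4 of 7 were at least 2-fold higher with no recovery and 2 of 7 at 7 days (24.4% and 22.9% of all), or 1 of 7 at each time after median-ratio scaling (12.9% and 13.4% of all). Their part in the Bmp6 difference was not tested.

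Id1, a helix-loop-helix inhibitor that BMP-SMAD signals induce, had the widest difference of the set by label. It stood at 3.95 CPM (84 reads) in the control-labelled and 47.6 (1089 reads) in the OGT-KO-labelled library with no recovery, and at 7.01 and 53.4 CPM at 7 days. The ratio was 12.1 (9.65 to 15.2) with no recovery and 7.62 (6.39 to 9.14) at 7 days, on the log2 scale 3.30 and 2.76, or 2.83 and 2.30 after median-ratio scaling. With no recovery 98.0% of all compared genes had a smaller difference, and at 7 days 94.8%. With no recovery Bmp6 had 1.60 reads per Id1 read in the control-labelled and 0.406 in the OGT-KO-labelled library. At 7 days it had 0.657 and 0.346. Per transcript length these ratios were 0.415 and 0.106, then 0.171 and 0.090, so Id1 exceeded Bmp6 in every library. Id1 is expressed in endothelial and other cells as well as in hepatocytes. Marker sums of endothelial cells, macrophages, stellate cells and cholangiocytes were higher in the OGT-KO-labelled libraries. Their part in the Id1 difference was not tested.

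Tfr2, the hepatocyte receptor that reports transferrin iron to the hepcidin pathway, was clearly below the typical gene at both times. It had 513 CPM in the control-labelled and 371 in the OGT-KO-labelled library with no recovery, and 505 and 319 at 7 days. The ratio was 0.724 (0.704 to 0.745) and 0.633 (0.614 to 0.652). On the log2 scale the differences were -0.46 and -0.66 as deposited and -0.98 and -1.15 after median-ratio scaling, which puts the second past 2-fold. Only 12.05% of compared genes had a lower difference with no recovery and 6.76% at 7 days. Of the 8 hepatocyte markers, 5 were at least 2-fold lower with no recovery and 4 at 7 days (5.69% and 4.27% of all). At 7 days Hnf4a (-0.91), Apoa2 (-1.63), Apoa1 (-1.97), Cyp2f2 (-2.77) and Cyp2e1 (-2.93) were lower than Tfr2, whereas Alb (-0.08), Ttr (-0.44) and Tat (0.46) were not. With no recovery Ttr (-0.87) was lower too, and only Alb (-0.21) and Tat (0.14) were not as low as Tfr2. Whether Tfr2 moved with the share of hepatocyte RNA was not tested.

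Tfrc, the receptor through which most cells take up transferrin, was low in all libraries and differed by label chiefly at 7 days. Its levels were 28.5 CPM (control-labelled) and 35.3 (OGT-KO-labelled) with no recovery, and 16.1 and 45.1 at 7 days. The ratio was 1.24 (1.12 to 1.38) with no recovery, where the log2 difference of 0.30 turned to -0.20 after median-ratio scaling, and 2.80 (2.47 to 3.19) at 7 days, where 1.43 became 0.96. The control-labelled library at 7 days had the lowest level and the OGT-KO-labelled one at the same time the highest. Tfrc reads per Tfr2 read followed the same order, with 0.0555 and 0.0951 with no recovery and 0.0318 and 0.141 at 7 days. Dividing cells carry much transferrin receptor, and the cycling list summed to 12.1 and 139.9 CPM with no recovery and to 13.4 and 305 CPM at 7 days (control-labelled, then OGT-KO-labelled). Their part in the Tfrc level was not tested.

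Trf, the plasma iron carrier that hepatocytes secrete, was the most abundant member and nearly level. It stood at 15250.3 CPM in the control-labelled and 14480.1 in the OGT-KO-labelled library with no recovery, and at 13398 and 16215 at 7 days. The ratio was 0.949 (0.945 to 0.954) and 1.21 (1.20 to 1.22). The log2 difference with no recovery was -0.075 (-0.60 after median-ratio scaling), and that at 7 days was 0.28, which turned to -0.22 after it. The hepatocyte markers around it spread widely: Apoa1 differed by -1.60 and -1.97 on the log2 scale, albumin by -0.21 and -0.08, and Tat by 0.14 and 0.46.

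Slc40a1, which encodes ferroportin and carries 1 of the 5′ hairpins printed above, was moderately higher by label. Its levels were 84.5 and 134.8 CPM with no recovery and 71.0 and 130.3 at 7 days (control-labelled, then OGT-KO-labelled). The ratio was 1.59 (1.504 to 1.69) and 1.83 (1.72 to 1.96). Most of that was the shift of the typical gene: the log2 differences of 0.67 and 0.87 became 0.15 and 0.37 after median-ratio scaling. Iron-recycling macrophages are rich in ferroportin, and the sums of their markers were 258 and 918 CPM with no recovery and 95.6 and 610 CPM at 7 days, a much wider gap than that of Slc40a1. Their part in it was not tested.

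The ferritin chains, which build the shell that stores iron, were both higher by label. Fth1, the heavy chain with ferroxidase activity, had 1883 and 3858 CPM with no recovery and 1654 and 3038 at 7 days (control-labelled, then OGT-KO-labelled). Ftl1, the light chain, had 2908 and 4366 CPM with no recovery and 2188 and 4329 at 7 days. Both chains were thus above the control-labelled values in each OGT-KO-labelled library. The ratio for Fth1 was 2.05 (2.02 to 2.07) with no recovery and 1.84 (1.81 to 1.86) at 7 days, and for Ftl1 1.501 (1.49 to 1.52) and 1.98 (1.96 to 2.00), so that Fth1 lay just past 2-fold once and Ftl1 just short of it. After median-ratio scaling the log2 differences of Fth1 (1.03 and 0.88) became 0.51 and 0.38 and those of Ftl1 (0.59 and 0.98) became 0.07 and 0.49. The chains did not move in step: Ftl1 had 1.54 reads per Fth1 read in the control-labelled and 1.13 in the OGT-KO-labelled library with no recovery, and 1.32 and 1.43 at 7 days. A processed copy, Ftl1-ps1, was listed at 5.26 to 12.4 CPM, and reads that fit both it and Ftl1 make the level of either slightly uncertain.

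The comparison of recovery times asked which members had moved 7 days after the diet ended, and it reuses the same 4 libraries. Between the control-labelled libraries, 0 of 10 members were at least 2-fold higher (0.245% of all compared genes) and 0 were lower (0.96% of all). Few genes passed 2-fold here, which places 3 smaller differences far out: Id1 was higher at 7 days by 0.69 (percentile 99.3 of all compared differences), Hamp2 by 0.66 (percentile 99.1) and Hamp by 0.65 (percentile 99.1). The ratios were 1.77 (1.34 to 2.35) for Id1, 1.67 (1.33 to 2.10) for Hamp2 and 1.57 (1.53 to 1.62) for Hamp. At the other end Tfrc was lower at 7 days, with a ratio of 0.565 (0.492 to 0.648) and a difference of -0.79 at percentile 1.94. Ftl1 was lower by 0.41 and Bmp6 by 0.38 on the log2 scale, and Tfr2 was level at -0.02. Over the same interval 7 of 7 compared markers of Kupffer cells and macrophages were at least 2-fold lower. Whether Ftl1 or Tfrc moved with these cells was not tested.

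Between the OGT-KO-labelled libraries, Hamp2 alone among the members was at least 2-fold higher at 7 days (1.04% of all compared genes were), and 0 were lower (0.435% of all). Its ratio of 7.33 (6.31 to 8.54) and difference of 2.74 lay at percentile 99.98 of all compared differences, with 2.77 after median-ratio scaling, under which it was again the 1 member called higher (1.27% of all) and 0 were lower (0.357% of all). The other 9 members lay between -0.34 (Fth1) and 0.34 (Tfrc). Hamp differed by 0.18, Id1 by 0.16 and Bmp6 by -0.06, each less than between the control-labelled libraries in size.

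**Figure D4:**
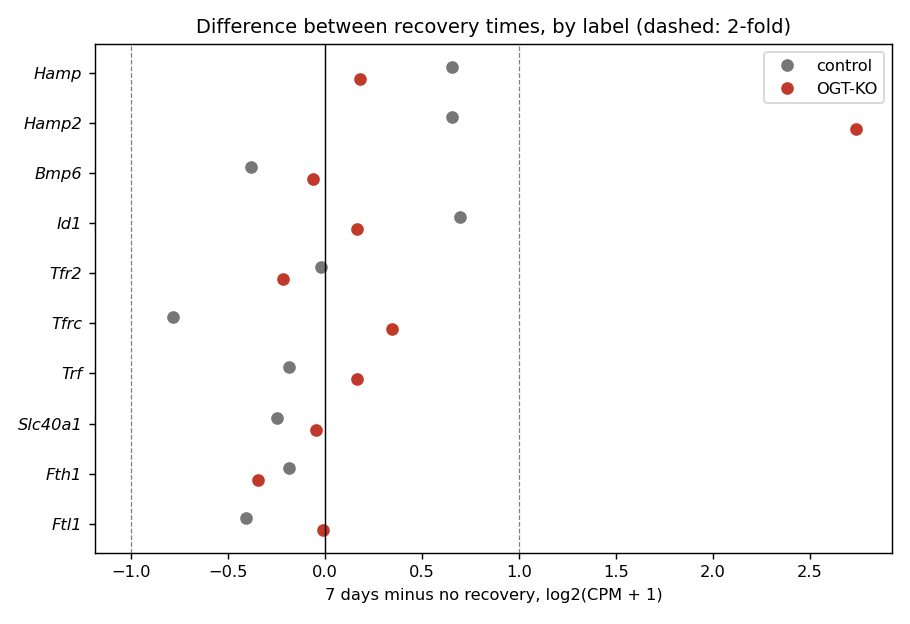
Difference in log2(CPM + 1) between 7 days and no recovery for each member, in grey for the control-labelled and in red for the OGT-KO-labelled libraries, 1 library per point. Dashed lines mark 2-fold. Hamp2 in the OGT-KO-labelled libraries (2.74) is the only point past them, and Tfrc lies on opposite sides of 0 (-0.79 and 0.34).

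Set against each other, the label difference at 7 days exceeded that with no recovery by at least 2-fold for Hamp2 (2.08 on the log2 scale, counting interval 1.70 to 2.47) and for Tfrc (1.13, 0.89 to 1.37), where 2.09% of all compared genes did, and for 0 members in the other direction (0.647% of all). Because the shift of the typical gene was nearly the same at both times, these values depend little on scaling. Hamp (-0.47) and Id1 (-0.53, -0.94 to -0.12) had the smaller label difference at 7 days. For Bmp6 the interval (-0.11 to 0.75) included 0. With 1 library per condition none of these differences could be tested against the spread between mice.

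The other genes that feed the hepcidin promoter were called about as often as genes at large. Of 18 compared genes of the BMP-SMAD input, 5 were at least 2-fold higher and 1 was lower with no recovery (24.4% and 5.69% of all compared genes), and 4 were higher and 0 lower at 7 days (22.9% and 4.27% of all), with medians of 0.79 and 0.76 beside 0.51 and 0.48 for all compared genes. After median-ratio scaling 3 were higher and 1 lower with no recovery (12.9% and 11.5% of all), and 1 was higher and 2 were lower at 7 days (13.4% and 8.48% of all), with medians of 0.29 and 0.27. Here and in the lists that follow, a label difference well under the shift of the typical gene (0.51 and 0.48) lay below 0 after this scaling. Those higher with no recovery were the signal carrier Smad1, the pathway targets Id3 and Atoh8 and the feedback inhibitors Smad6 and Smad7, and the lower one was Tmprss6. At 7 days Smad6 and Smad7 were higher again, with the BMP receptor Bmpr1a and the hemojuvelin-binding Neo1. Among these higher genes, median-ratio scaling left Smad7, Id3 and Atoh8 past 2-fold with no recovery and Smad6 alone at 7 days. Smad7, an inhibitory SMAD that BMP signals induce, had 11.3 and 43.1 CPM with no recovery and 15.0 and 40.0 at 7 days (control-labelled, then OGT-KO-labelled, as in the rest of this account). Smad6, its relative, had 6.68 and 17.6 CPM and then 5.36 and 23.2, and it was compared only through the OGT-KO-labelled libraries, since it lay under 10 CPM in the others. Atoh8, a transcription factor under BMP control, had 18.6 and 63.8 CPM and then 21.6 and 43.5, and Id3, a relative of Id1, had 41.7 and 123 CPM and then 67.4 and 113.8.

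Among the membrane proteins of the same input, the BMP co-receptor hemojuvelin (Hjv) differed by 0.95 with no recovery and by 0.86 at 7 days on the log2 scale, and Hfe, which partners the transferrin receptors, by 0.17 and 0.42. Tmprss6, the hepatocyte protease that cleaves hemojuvelin and so restrains hepcidin, stood lower, with 560.5 and 270.1 CPM with no recovery and 485 and 330 at 7 days, or log2 differences of -1.05 and -0.56. Both Tmprss6 and Tfr2 are hepatocyte genes, and hepatocyte marker sums were lower in the same libraries. Their part in the Tmprss6 difference was not tested. Erfe, the erythroid hormone that lowers hepcidin, was under the filter, at 0.141 to 1.02 CPM.

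The IL-6-STAT3 input was thinner. Il6 was not among the genes of the expression table and Il1b was below the filter (0.751 to 8.27 CPM), which left 6 of 8 genes. Of these, 1 was at least 2-fold higher with no recovery (Jak1, 98.6 and 216 CPM), where 24.4% of all compared genes were. At 7 days 0 were higher (22.9% of all). With no recovery 0 were lower (5.69% of all), and at 7 days 1 was (the receptor Il6ra, 41.3 and 17.1 CPM, 4.27% of all). After median-ratio scaling 0 were higher at either time (12.9% and 13.4% of all) and 1 was lower at each (11.5% and 8.48% of all). The medians were 0.74 and 0.23, the second of which turned to -0.26 after median-ratio scaling. Il6st, the shared signalling receptor, differed by 0.85 and 0.68 and Jak2 by 0.90 and 0.71 on the log2 scale.

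**Figure D5:**
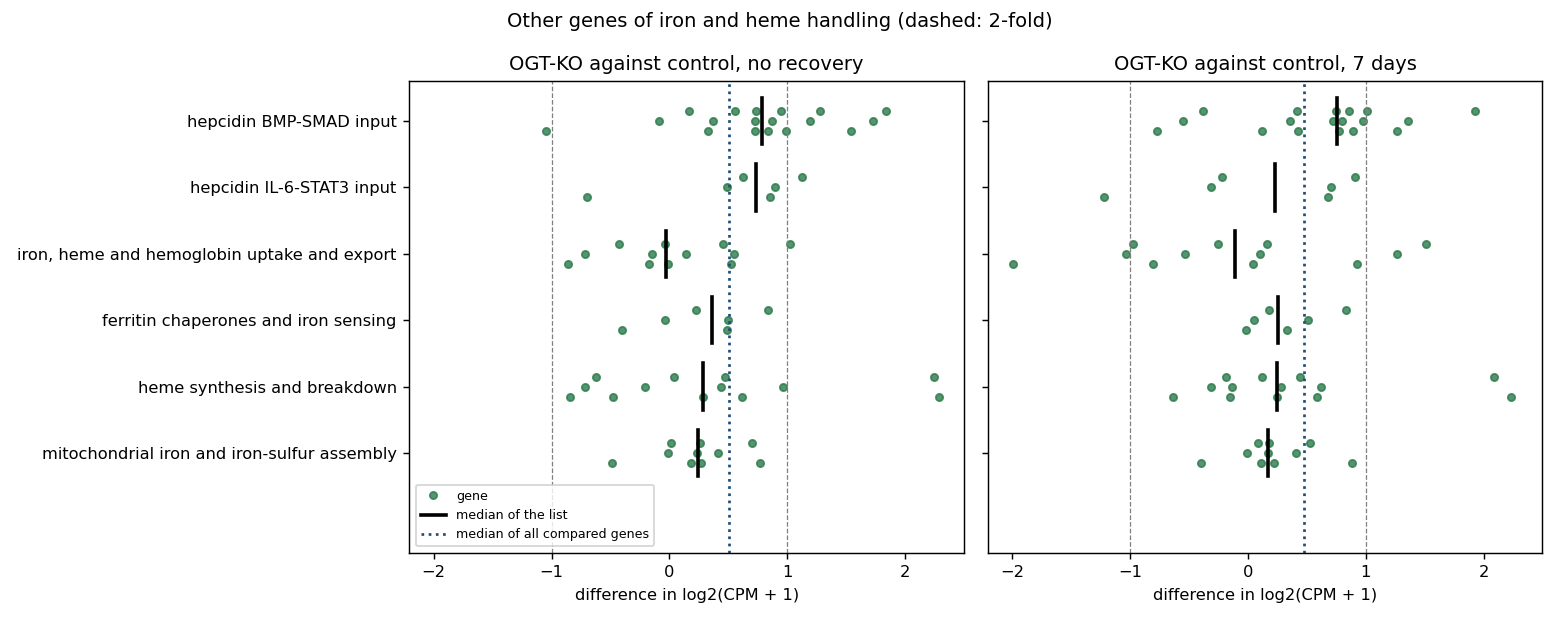
Difference in log2(CPM + 1) between the OGT-KO-labelled and control-labelled library for the compared genes of 6 lists, with no recovery (left) and at 7 days (right). Points are genes, black bars list medians, the dotted line the median of all compared genes and dashed lines 2-fold. The BMP-SMAD list lies right of the dotted line (medians 0.79 and 0.76), and the uptake list lies at -0.03 and -0.11 with genes past 2-fold on both sides at 7 days.

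By their median, the genes listed for uptake and export of iron, heme and hemoglobin lay below the typical gene in the OGT-KO-labelled libraries. Of 12 compared, 1 was at least 2-fold higher and 0 lower with no recovery (24.4% and 5.69% of all), and 2 were higher and 2 lower at 7 days (22.9% and 4.27% of all), with medians of -0.03 and -0.11. After median-ratio scaling 0 were higher and 2 lower with no recovery (12.9% and 11.5% of all), and 1 was higher and 5 were lower at 7 days (13.4% and 8.48% of all), with medians of -0.54 and -0.61. The ferrireductase Steap2 was higher (4.56 and 10.3 CPM, then 7.51 and 23.2), although it was compared only through the OGT-KO-labelled libraries, and so at 7 days was Cd163, the macrophage receptor for hemoglobin bound to haptoglobin (14.0 and 20.5 CPM, then 5.76 and 15.2). Slc39a14, which imports iron not bound to transferrin, had 184 and 203 CPM with no recovery and 326 and 159 at 7 days, a log2 difference of 0.14 that turned to -0.38 after median-ratio scaling and then one of -1.03 (-1.53). Scara5, a ferritin receptor, had 12.7 and 9.14 CPM and then 46.9 and 11.03, so that its gap at 7 days came with a high control-labelled library. Haptoglobin (Hp) differed by -0.72 and -0.80 and the ferroxidase ceruloplasmin (Cp) by 0.46 and 0.16 on the log2 scale.

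In the heme list, 2 of 13 compared genes were at least 2-fold higher at both times (19.2% of all) and 0 were lower (3.74% of all). Hmox1, the inducible heme oxygenase that frees iron from heme, had 20.4 and 100.02 CPM with no recovery and 16.0 and 71.5 at 7 days. Slc48a1, which brings heme out of the lysosome, had 57.6 and 285 CPM and then 44.9 and 215. Both differed by more than 2 on the log2 scale at each time, and both are abundant in macrophages, whose markers were higher in the same libraries, a part that was not tested. Hmox2, the constitutive oxygenase, differed by 0.97 and 0.28, and Cpox, an enzyme of heme synthesis, by -0.85 and -0.64. The median of the list was 0.28 and 0.25, below that of all compared genes. After median-ratio scaling 2 genes were higher at each time (12.9% and 13.4% of all). Under it 4 were lower with no recovery and 1 at 7 days (11.5% and 8.48% of all).

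Chaperones and sensors around ferritin, and the mitochondrial genes that use iron, had 0 of 6 and 0 of 10 compared genes called. This held at either time and under both scalings. Of all compared genes, 24.4% were higher and 5.69% lower with no recovery as deposited, and 22.9% and 4.27% at 7 days. After median-ratio scaling these shares were 12.9% and 11.5%, then 13.4% and 8.48%. Fbxl5, the iron-sensing ligase that degrades IRP2, differed by 0.84 and 0.83 and Ncoa4, which delivers ferritin to the lysosome, by 0.49 and 0.33 on the log2 scale. The iron chaperones Pcbp2 (0.50 and 0.51) and Pcbp1 (0.23 and 0.18) lay near or under the median gene. The mitochondrial importer Slc25a37 differed by 0.70 and 0.88, the scaffold of iron-sulfur clusters Iscu by 0.76 and 0.18, Isca1 by 0.41 and 0.41, and the electron carrier Fdx1 by -0.49 and -0.40.

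To place 3 members among all genes, the nearest profiles over the 4 libraries were found by Euclidean distance between log2(CPM + 1) values centred per gene. Nearest to Hamp were Gbp7 (distance 0.079), Sult1a1 (0.096) and Tbl1xr1 (0.101), and 1060 genes lay within 0.5. Nearest to Tfrc were Rnd1 (0.1003), Atp11a (0.106) and Pyroxd2 (0.169), with 295 genes within 0.5. Slc40a1 had the commonest shape, with Elf1 (0.016), Btbd9 (0.024) and Zfp36l2 (0.024) nearest and 3614 genes within 0.5. With 4 points per profile, such closeness is easily reached.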

How the data were processed

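Total RNA from liver was made into mRNA libraries, 1 per condition from a pool of 3 mice. The authors deposited 1 table of gene values whose name refers to DESeq2, but each column sums to 1000000, so the deposited unit is CPM. Whole reads were recovered for 100% of values (within 0.001 read). Per the labels' processing notes, STAR, DESeq2 and build GRCm39 were used; versions, counter, annotation and treatment of multi-mapping reads are not given in the sources used here. Python 3.11, pandas 2.3.3, scipy 1.17.1 and Biopython 1.88 were used. The plan had assumed a normalized value of unknown unit. Differences of log2(CPM + 1) were taken over genes averaging 10 CPM or more and called at 2-fold, without a test. Alternatives were 3 other scalings, pseudocounts of 0.1 and 10, no filter, a mean of 50, 4-fold, and an exact binomial test on recovered reads. Calling was tested on simulated data. Sequences came from GENCODE M21 and RefSeq (GRCm38), with lengths of principal transcripts. The members and gene lists were chosen with earlier results of these data known. Beside the members, the text names the 4 genes of each list with the largest mean difference by label, Hfe, Hjv, Tmprss6, Smad7, Hmox1, Cp, Slc39a14 and Ncoa4, the 3 nearest profiles, Ogt and markers. Erfe, Il1b, Ftl1-ps1, Smad1, Bmpr1a and Neo1 were added after their values were seen.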

Additional observations from a re-analysis of the deposited data

Results flagged for a closer look

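For some genes the difference lay in opposite directions in the 2 groups compared, each a single library against another, and the difference between the groups was not tested. Between labels, Trf differed by -0.075 (log2, OGT-KO-labelled less control-labelled) with no recovery and by 0.28 at 7 days, and Slc39a14 by 0.14 and -1.03. After median-ratio scaling both genes were lower at both times (-0.60 and -0.22 for Trf, -0.38 and -1.53 for Slc39a14), so these opposite directions depend on the scaling. Between recovery times (7 days less no recovery), Tfrc differed by -0.79 in the control-labelled and 0.34 in the OGT-KO-labelled libraries, and Trf by -0.19 and 0.16. Of the hepcidin inputs, Tmprss6 differed by -0.21 and 0.29, Id3 by 0.68 and -0.11 and Atoh8 by 0.20 and -0.54. Slc39a14 differed by 0.82 and -0.36, Cp by 0.11 and -0.19 and Hmox2 by 0.29 and -0.40. The differences between recovery times kept their directions after median-ratio scaling.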

How the results depend on the processing

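No paired analysis was possible because each condition was 1 pooled library. Requiring a mean of 50 CPM left 3220 genes, which drops Bmp6, Id1, Hamp2 and Tfrc by construction, and the members called higher by label went from 3 to 1 with no recovery and from 4 to 0 at 7 days, and those higher over recovery in the OGT-KO-labelled libraries from 1 to 0. At 4-fold, 1 member was higher with no recovery and 2 at 7 days. Members lower at 7 days went from 0 to 1 (Tfr2) with median-ratio scaling and with upper-quartile scaling. No other setting moved these counts by over 1.5 times. Of the 40 differences of members, 28 left their counting interval with median-ratio, 29 with upper-quartile scaling, 25 with the total taken without the 100 highest genes, 10 with a pseudocount of 10 and 0 with one of 0.1. Over all compared genes with no recovery, 2185 were higher and 510 lower by label as deposited, and 1159 and 1035 with median-ratio scaling. At 7 days 2050 and 383 became 1198 and 760. With a pseudocount of 10 the higher ones were 1367 and 1344 at the 2 times, without a filter 4595 and 4492 of 13903, and at 4-fold 691 and 788. The exact binomial test compares libraries, not conditions, and with a Benjamini-Hochberg adjusted p under 0.05 kept the 2-fold calls, which the filter on low values made it bound to do at this depth.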

Other observations

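The erythroid list did not share 1 pattern. Alas2, the erythroid enzyme that opens heme synthesis and whose transcript also held a hairpin match of the kind searched for, stood at 213 and 10.1 CPM with no recovery and at 171 and 24.0 at 7 days (control-labelled, then OGT-KO-labelled), log2 differences of -4.27 and -2.79. The 4 globin genes of the list differed far less: Hbb-bs, the most abundant, stood at 79.3 and 55.1 CPM and then at 61.0 and 80.0. Alas2 was chosen after its values were seen.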
